A study of Saccharomyces cerevisiae with 4 samples.

Results

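The mitochondrial ribosomal protein genes of Saccharomyces cerevisiae were the 65 genes with a symbol of the form MRPL, MRPS, MRP or RSM followed by a number, without MRP8, out of 5449 S. cerevisiae genes on the array. Of these, 37 belong to the large subunit (the MRPL genes, MRP7, MRP20 and MRP49) and 28 to the small subunit (the MRPS and RSM genes and the other MRP genes). Each of the 65 had 1 probe set. Transcript levels were measured in 2 arrays of cultures given 0.4 mM allyl alcohol for 3 h and 2 arrays of untreated cultures, which the labels describe as independent experiments. Allyl alcohol is oxidised by yeast alcohol dehydrogenases to the thiol-reactive aldehyde acrolein. All 4 cultures were of strain W1588-4c, a MATa haploid that is RAD5+ and carries the alleles ura3-1, trp1-1, leu2-3, 112, his3-11,15, can1-100 and ade2-1. They grew at 30 °C in synthetic complete medium with 2% glucose to an optical density of about 1. The sources used here give no incubation time for the untreated cultures, so a difference in growth time and the treatment cannot be told apart.

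The mitochondrial ribosome sits at the inner membrane and translates the few proteins encoded by mitochondrial DNA, nearly all of them subunits of the respiratory chain and the ATP synthase. With a single known exception in yeast, its proteins are encoded in the nucleus, made in the cytosol and imported. The small subunit binds the mRNA and reads its codons, and the large subunit forms the peptide bonds and holds the exit tunnel. In the unified naming of ribosomal proteins, a name beginning with u marks a protein shared by all kinds of ribosome, b one shared with bacteria only, and m one found in mitochondrial ribosomes.

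The values are log2 signals from RMA, a method that corrects background, equalises the distribution of probe signals between arrays and summarises the probes of a set. All 65 genes were above background on every array. Background was the 95th percentile of probe sets named outside the S. cerevisiae gene table and lay between 5.28 and 5.64, and the members lay between 9.07 and 13.10. Signals of different probe sets depend on the probes, so each gene is compared only with itself across arrays. In bulk RNA, fewer cells that hold a transcript and less of it per cell cannot be told apart.

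The arrays did not group by label. Across the 65 genes, which are not independent replicates, Pearson's r was 0.982 between the arrays labelled allyl alcohol replicate 1 and untreated replicate 2, and 0.993 between allyl alcohol replicate 2 and untreated replicate 1. It was 0.655 between both arrays labelled allyl alcohol and 0.701 between both labelled untreated. The median absolute difference of a member was 0.15 log2 units between allyl alcohol 1 and untreated 2 and 0.048 between allyl alcohol 2 and untreated 1, against 0.47 inside allyl alcohol and 0.41 inside untreated. Over all genes tested the same 4 values were 0.14, 0.086, 0.81 and 0.75. Arrays are therefore named by their labels (allyl alcohol 1 and 2, untreated 1 and 2), and every direction between the groups is that of the labels. Whether the labels of 2 arrays were exchanged cannot be told from these values. If they were, each labelled group would hold 1 treated and 1 untreated array, and the differences inside the labels would carry the treatment.

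**Figure D1:**
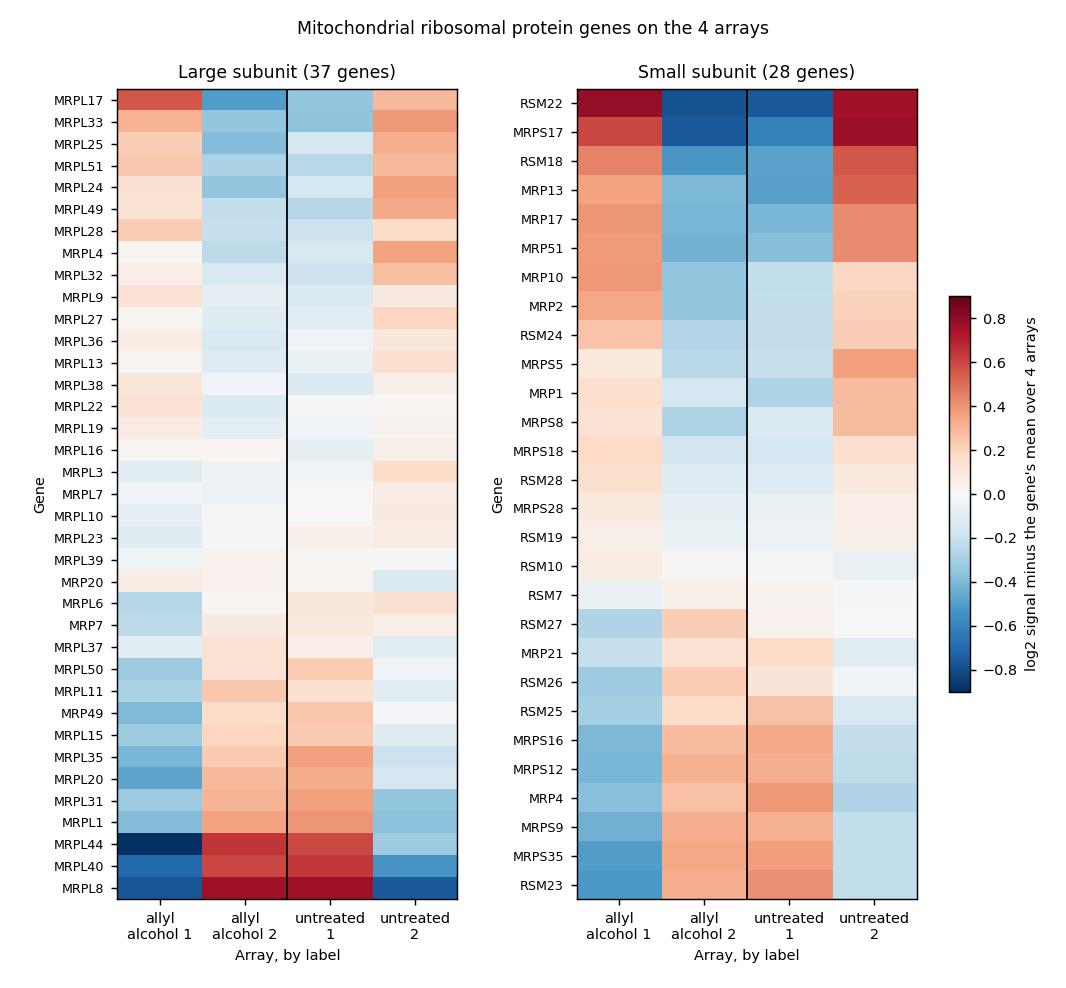
Heat map of the 65 genes on the 4 arrays. Each row is a gene, each column an array by its label, and the colour is the log2 signal minus that gene's mean over the 4 arrays; genes are ordered from top to bottom by the mean of allyl alcohol 1 minus 2 and untreated 2 minus 1. The outer columns look alike and the inner columns look alike, with RSM22 (1.57 and 1.52) at the top of the small subunit and MRPL8 (-1.53 and -1.52) at the bottom of the large subunit.

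The comparison of allyl alcohol with untreated asks whether exposure changed the transcripts of mitochondrial ribosomal proteins, and it answers that question only if the labels are right. By label no member passed the test in limma, with 0 of 65 called at an adjusted p of 0.05 beside 0.0% of all genes tested. The smallest unadjusted p of a member was 0.506 and 0 members had an unadjusted p under 0.05. The median log2 difference of the members was -0.073, against -0.025 over all genes tested, and the members lay between -0.27 (MRPL44) and 0.11 (MRP20). The median 95% interval of a member reached 1.10 log2 units to either side, so a change of 2-fold was within the interval of a typical member. With 2 arrays a group, the smallest two-sided p that an exact permutation test allows is 0.333. Differences were negative for 50 of 65 members, or 76.9%, beside 58.0% of all genes. That count was 42 with each array centred on its median gene and between 30 and 43 with any single array left out. The share over all genes was not computed under those settings, so whether the members still differed from all genes there is not shown. The median difference was -0.066 without allyl alcohol 1, -0.022 without allyl alcohol 2, -0.078 without untreated 1 and 0.013 without untreated 2, so its sign rested on untreated 2.

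The median group differences of the subunits were close. The median log2 difference was -0.084 for the 37 large-subunit genes and -0.046 for the 28 small-subunit genes. The gap between these medians, large minus small, was -0.038. Without single arrays the gap lay between -0.13 (without allyl alcohol 2) and 0.029 (without allyl alcohol 1), so 1 array decided its sign. After subtraction of each gene's mean over the arrays, the median of the large subunit was -0.024 and -0.016 on allyl alcohol 1 and 2 and -0.0010 and 0.062 on untreated 1 and 2. For the small subunit these values were 0.092 and -0.098 on allyl alcohol 1 and 2 and -0.093 and 0.075 on untreated 1 and 2. The small subunit was thus above its own mean on 1 array of each label and below it on the other, while the large subunit stayed within 0.062 of its mean on all 4 arrays.

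The groups did not overlap for 7 of the 65 genes, or 10.8%, beside 5.23% of all genes tested. Of these, 2 were higher in allyl alcohol, beside 1.89% of all genes, and 5 were lower, beside 3.34%. The large subunit held 6 of the 7. All 7 had narrow gaps inside both labels, and the widest among them was 0.28, in MRPL6. MRPL6 (YHR147C, uL6m) had log2 signals of 11.34 and 11.62 on allyl alcohol 1 and 2, and 11.70 and 11.73 on untreated 1 and 2. Both allyl alcohol arrays were lower, by -0.24 on the log2 scale (standard error 0.33, adjusted p of 1 in limma). Without allyl alcohol 1 the difference was -0.10 and without allyl alcohol 2 it was -0.38.

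MRPL3 (YMR024W, mL44), a protein with a ribonuclease III-like fold, had 12.11 and 12.17 on the allyl alcohol arrays and 12.19 and 12.38 on the untreated arrays, a log2 difference of -0.14 (standard error 0.32). Without untreated 1 it was -0.24 and without untreated 2 it was -0.051. MRPL23 (uL13m) had 12.32 and 12.42 in allyl alcohol, and 12.47 and 12.49 in untreated cultures, and its difference lay between -0.16 and -0.066 with any single array left out, the smallest without allyl alcohol 1. These genes, like the next pair, were lower on both allyl alcohol arrays, by less than their standard errors. MRPL10 (uL15m) had 11.60 and 11.66 in allyl alcohol and 11.68 and 11.76 in untreated cultures, a log2 difference of -0.087 that was -0.049 without untreated 2. MRPL7 (uL5m) had 11.47 and 11.44 in allyl alcohol and 11.49 and 11.57 in untreated cultures, a log2 difference of -0.073 that was -0.036 without untreated 2 and -0.11 without untreated 1.

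The members higher on both allyl alcohol arrays were MRP20 and RSM10. MRP20 (YDR405W, uL23m), which lies at the exit of the peptide tunnel, had log2 signals of 9.96 and 9.94 on allyl alcohol 1 and 2 and 9.92 and 9.76 on untreated 1 and 2. Its log2 difference was 0.11 (standard error 0.32), and it lay between 0.033 and 0.19 with any single array left out. RSM10 (YDR041W, uS10m), a protein of the small-subunit head, had 12.26 and 12.21 in allyl alcohol and 12.17 and 12.13 in untreated cultures, with a log2 difference of 0.084 (standard error 0.31), or 0.056 without allyl alcohol 1. In limma both genes had an adjusted p of 1, and each difference was smaller than its standard error.

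**Figure D2:**
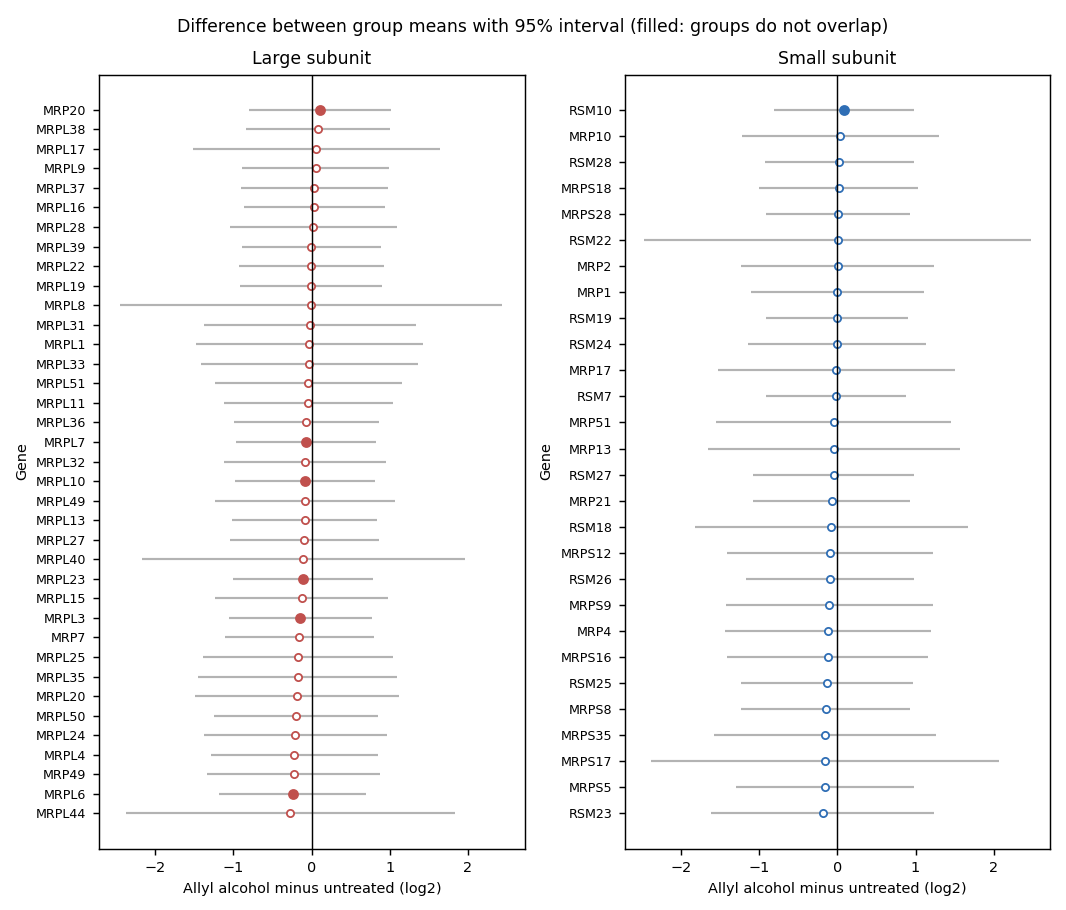
Log2 difference, allyl alcohol minus untreated, of each gene by subunit, with its 95% interval from limma as a grey line (2 arrays a group). Filled points are the 7 genes whose groups do not overlap; every interval includes 0, and the widest belong to RSM22, MRPL8, MRPS17, MRPL44 and MRPL40, the genes furthest apart inside the labels.

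Differences between arrays of one label were larger than those between the groups. For 55 of the 65 members the gaps inside both labels exceeded the difference between the group means, as they did for 4830 of the 5449 genes. These gaps compare single arrays and carry no test, and they ran in crossed order: members higher on allyl alcohol 1 than on 2 were mostly higher on untreated 2 than on 1. The sign was shared for 58 of 65 members, 33 higher and 25 lower on allyl alcohol 1 and untreated 2. The members' gaps inside allyl alcohol and inside untreated correlated at r = 0.960 over 65 genes on arrays that share processing, against 0.973 over all genes. The order of subtraction was chosen with earlier results known.

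Compared with other genes, few members stood far apart inside the labels. At least 2-fold apart inside both labels were 4 of the 65 members, or 6.15%, beside 34.4% of all genes tested. Of these, 2 were higher on allyl alcohol 1 and untreated 2, beside 18.6% of all genes, and 2 were lower, beside 15.8%. Inside allyl alcohol alone 6 members were at least 2-fold apart, beside 40.8% of all genes, and inside untreated alone 6, beside 38.0%. In both labels 30 members, or 46.2%, were under 0.5 log2 units apart, beside 27.7% of all genes. The median absolute gap of the large subunit was 0.32 inside allyl alcohol and 0.27 inside untreated, and that of the small subunit 0.60 and 0.49. The small-subunit genes therefore had the wider gaps by median. This comparison of subunits and of the members with all genes is a description and was not tested.

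**Figure D3:**
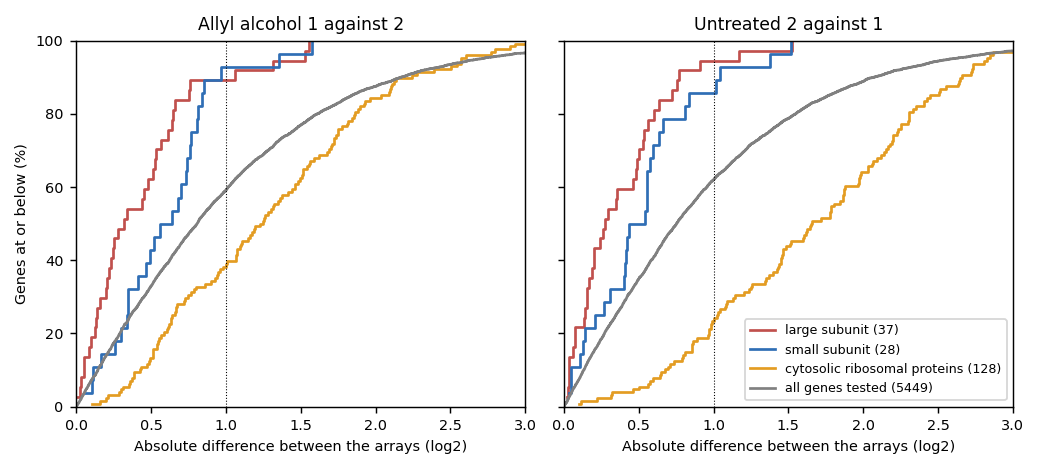
Cumulative share of genes (%) by their absolute log2 difference between the arrays of one label, for allyl alcohol 1 against 2 (left) and untreated 2 against 1 (right); the axes end at 3 and the dotted line marks 2-fold. Both subunits reach 100% near 1.6 (largest gap 1.57), whereas 40.8% and 38.0% of all genes lie beyond 2-fold, and most cytosolic ribosomal protein genes do (78 and 98 of 128).

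The members furthest above on allyl alcohol 1 and untreated 2 were mostly small-subunit genes. RSM22 (YKL155C), counted with the small subunit by its symbol and without a unified name, encodes a protein with a methyltransferase-like domain. It had log2 signals of 10.86 and 9.28 on allyl alcohol 1 and 2, and 9.31 and 10.82 on untreated 1 and 2. That is 2.97-fold inside allyl alcohol and 2.86-fold inside untreated, while the group means were 10.07 in both. MRPS17 (YMR188C, uS17m) had 12.17 and 10.82 on allyl alcohol 1 and 2, and 10.96 and 12.34 on untreated 1 and 2, or 2.55-fold and 2.60-fold. These were the members at least 2-fold higher on that pair of arrays in both labels, and each group held 1 high and 1 low array.

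RSM18 and MRP17 encode the counterparts of bacterial S18 and S6, which contact each other on the bacterial small subunit. RSM18 (bS18m) had 12.61 and 11.64 on allyl alcohol 1 and 2, and 11.68 and 12.72 on untreated 1 and 2. MRP17 (bS6m) had 12.31 and 11.50 on allyl alcohol 1 and 2, and 11.50 and 12.34 on untreated 1 and 2. The fold between arrays was 1.96 and 2.06 for RSM18, and 1.75 and 1.79 for MRP17, inside allyl alcohol and untreated in that order. MRP51 (bS1m), which has been linked genetically to the untranslated leaders of mitochondrial mRNAs, had 12.55 and 11.74 on allyl alcohol 1 and 2 and 11.79 and 12.60 on untreated 1 and 2. MRP13 (mS44), a mitochondria-specific protein, had 11.88 and 11.11 on allyl alcohol 1 and 2 and 11.03 and 12.05 on untreated 1 and 2. In each of these genes allyl alcohol 1 and untreated 2 were the high arrays, and the groups overlapped.

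A pair of large-subunit genes completed the 8 members furthest above. MRPL17 (YNL252C, mL46) had log2 signals of 12.08 and 11.02 on allyl alcohol 1 and 2, and 11.17 and 11.80 on untreated 1 and 2, or 2.09-fold and 1.56-fold. MRPL33 (uL30m) had 11.90 and 11.24 on allyl alcohol 1 and 2, and 11.23 and 11.98 on untreated 1 and 2, or 1.58-fold and 1.69-fold. No large-subunit gene was at least 2-fold higher in both labels.

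The members furthest below on allyl alcohol 1 and untreated 2 were led by large-subunit genes. MRPL8 (YJL063C, bL17m) had log2 signals of 9.70 and 11.23 on allyl alcohol 1 and 2, and 11.24 and 9.71 on untreated 1 and 2. It was 2.88-fold higher on allyl alcohol 2 than on 1 and 2.87-fold higher on untreated 1 than on 2, and the difference between the groups was -0.0091. MRPL40 (YPL173W, uL24m) had 9.07 and 10.39 on allyl alcohol 1 and 2, and 10.42 and 9.25 on untreated 1 and 2, or 2.49-fold and 2.25-fold in the same order. MRPL44 (YMR225C, mL53), a mitochondria-specific protein, had 9.64 and 11.19 on allyl alcohol 1 and 2, and 11.15 and 10.24 on untreated 1 and 2. Its gaps of 2.94-fold and 1.88-fold were less alike than those of MRPL8, and it had the most negative group difference of the members, -0.27 (standard error 0.73). The sign of that difference turned with single arrays left out: it was 0.50 without allyl alcohol 1, -1.05 without allyl alcohol 2, 0.18 without untreated 1 and -0.73 without untreated 2.

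The other members among the 8 furthest below had gaps under 2-fold. MRPL1 (uL1m), whose bacterial counterpart forms the stalk where tRNAs leave, had 11.14 and 11.89 on allyl alcohol 1 and 2, and 11.93 and 11.16 on untreated 1 and 2. MRPL31 (mL60) had 10.98 and 11.61 on allyl alcohol 1 and 2, and 11.68 and 10.95 on untreated 1 and 2. The small subunit contributed 3 genes. RSM23 (mS29), a GTP-binding protein related to human DAP3, had 10.76 and 11.60 on allyl alcohol 1 and 2 and 11.68 and 11.05 on untreated 1 and 2. MRPS35 (mS45) had 10.56 and 11.42 on allyl alcohol 1 and 2 and 11.44 and 10.85 on untreated 1 and 2. MRPS9 (uS9m) had 11.64 and 12.40 on allyl alcohol 1 and 2 and 12.39 and 11.85 on untreated 1 and 2. All 5 were lower on allyl alcohol 1 and untreated 2, by between 0.54 and 0.86 log2 units.

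**Figure D4:**
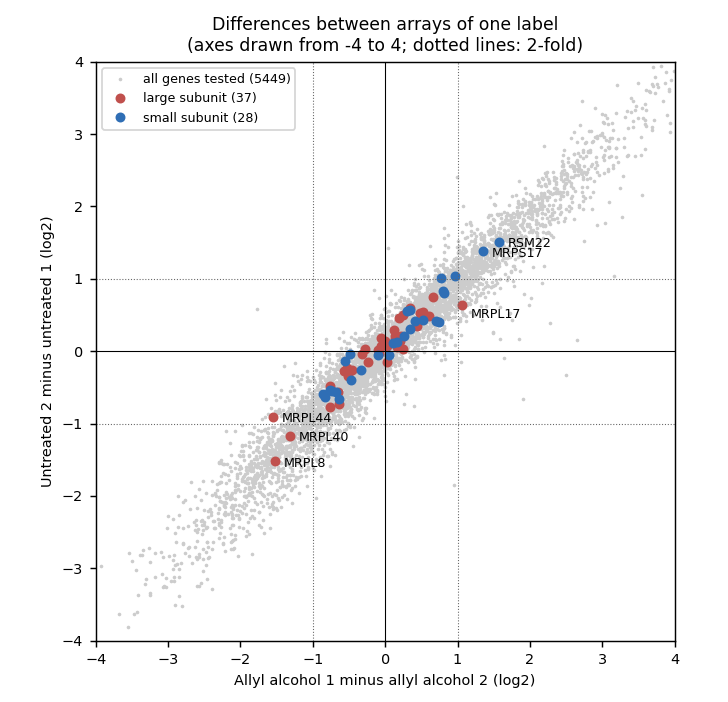
Log2 difference of allyl alcohol 1 minus 2 (horizontal) against untreated 2 minus 1 (vertical) for the 37 large-subunit genes, the 28 small-subunit genes and all 5449 genes; dotted lines mark 2-fold and genes beyond 4 are outside the axes. The members follow the diagonal of all genes but stay near its centre, with 2 members beyond 2-fold at the upper right (RSM22, MRPS17) and 2 at the lower left (MRPL8, MRPL40).

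The other members named for their roles had small differences between the group means, from -0.16 to 0.038, and 0 of them were called. MRPL32 (bL32m), which the m-AAA protease must process before it enters the large subunit, had log2 signals of 11.71 and 11.52 on allyl alcohol 1 and 2 and 11.47 and 11.93 on untreated 1 and 2. Both genes of the protease had their higher signals on allyl alcohol 1 and untreated 2. AFG3 had 12.77 and 11.29 on allyl alcohol 1 and 2 and 11.38 and 12.59 on untreated 1 and 2. YTA12 had 11.66 and 11.35 on allyl alcohol 1 and 2 and 11.31 and 11.76 on untreated 1 and 2. MRP10 (mS37), a cysteine-rich protein that depends on the Mia40 import route, had 12.48 and 11.74 on allyl alcohol 1 and 2 and 11.87 and 12.27 on untreated 1 and 2. Its group difference was 0.038 (standard error 0.44). MRP7 (bL27m), whose bacterial counterpart reaches the peptidyl transferase centre, had 10.82 and 11.14 on allyl alcohol 1 and 2 and 11.15 and 11.12 on untreated 1 and 2. Only allyl alcohol 1 stood apart for this gene. MRPL36 (bL31m) had 12.40 and 12.19 on allyl alcohol 1 and 2 and 12.30 and 12.43 on untreated 1 and 2. MRPS5 (uS5m) had 11.12 and 10.77 on allyl alcohol 1 and 2 and 10.82 and 11.39 on untreated 1 and 2.

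By the unified names in the RefSeq table, 27 members were universal, 13 shared with bacteria and 24 mitochondrial, and RSM22 had no such name there. The universal proteins had the narrowest gaps inside the labels, with median absolute log2 differences of 0.25 inside allyl alcohol and 0.20 inside untreated. The bacterial class had 0.46 and 0.53 and the mitochondrial class 0.54 and 0.42. The values differed by subunit. In the same order, universal members had 0.22 and 0.16 in the large subunit and 0.38 and 0.42 in the small. Bacterial members had 0.33 and 0.36 in the large subunit and 0.80 and 0.81 in the small. Mitochondrial members had 0.55 and 0.42 in the large subunit and 0.54 and 0.42 in the small. Inside untreated, universal and mitochondrial members of the small subunit were thus alike. Under 0.5 log2 units apart in both labels were 16 of 27 universal, 6 of 13 bacterial and 8 of 24 mitochondrial members. Median group differences were -0.031, -0.078 and -0.091 for the universal, bacterial and mitochondrial classes. The grouping by class was added after the values were seen, and its differences were not tested. One pair of members, MRPS12 and RSM19, are neighbours in the RefSeq gene order. MRPS12 (uS12m, a protein of the decoding centre) was lower by 0.73 on allyl alcohol 1 than on 2 and by 0.55 on untreated 2 than on 1, whereas RSM19 (uS19m) was higher by 0.11 in both.

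The mitochondrial ribosomal proteins that the naming rule leaves out had gaps inside the labels within the members' range. Of 8 large-subunit genes (IMG1, IMG2, MNP1, RML2, YML6, RTC6, MHR1 and MRX14) the median group difference was -0.13, with 0 called. The groups did not overlap for 2 of the 8, RTC6 and MNP1, beside 5.23% of all genes tested. Both were lower in allyl alcohol, beside 3.34% of all genes. The list was not tested against all genes, and both genes were picked out after their values were seen. RTC6 had 12.02 and 12.09 on allyl alcohol 1 and 2 and 12.28 and 12.32 on untreated 1 and 2, a log2 difference of -0.25 with an adjusted p of 1 in limma. MNP1 had 12.27 and 12.44 on allyl alcohol 1 and 2 and 12.55 and 12.50 on untreated 1 and 2. Of 5 small-subunit genes 4 were measured, and VAR1 was not analysed here. On allyl alcohol 1 and untreated 2, 3 of the 4 were lower and 1, EHD3, was higher. The medians of the 4 were -0.25 inside allyl alcohol and -0.25 inside untreated, against 0.21 and 0.17 for the 28 small-subunit members. EHD3, which encodes a protein of the hydroxyisobutyryl-CoA hydrolase family, was the one at least 2-fold apart in both labels, with 12.61 and 11.37 on allyl alcohol 1 and 2 and 11.35 and 12.63 on untreated 1 and 2.

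Apart from the 2 transcription genes, the factors below were at least 2-fold apart inside both labels about as often as all genes. That was more often than for the members. These differences were not tested. By label, 0 of 9 translation factors, 0 of 13 assembly and membrane attachment genes, 0 of 15 translational activators, 0 of 13 aminoacyl-tRNA synthetases and 0 of 2 transcription genes were called in limma, with median group differences between -0.048 and -0.016. Inside both labels at least 2-fold apart were 3 of 9 translation factors, 5 of 13 assembly genes, 6 of 15 activators and 4 of 13 synthetases, beside 34.4% of all genes. MRF1, the mitochondrial release factor, had 8.57 and 10.87 on allyl alcohol 1 and 2 and 10.89 and 8.49 on untreated 1 and 2. The initiation factor gene IFM1 had 10.50 and 9.32 on allyl alcohol 1 and 2 and 9.35 and 10.51 on untreated 1 and 2, and MEF2, which encodes an elongation factor G-like protein, had 11.37 and 9.91 on allyl alcohol 1 and 2 and 10.00 and 11.37 on untreated 1 and 2. The release factor gene was thus low on allyl alcohol 1 and untreated 2, and the other named factor genes were high there.

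Among assembly genes, 1 was higher and 4 were lower on allyl alcohol 1 and untreated 2. GEP3, a GTPase-like factor, had 8.05 and 9.99 on allyl alcohol 1 and 2 and 9.88 and 8.18 on untreated 1 and 2. OXA1, the insertase that receives the nascent chains, had 9.30 and 10.67 on allyl alcohol 1 and 2 and 10.71 and 8.98 on untreated 1 and 2. MRM2, an rRNA methyltransferase, had 8.95 and 10.19 on allyl alcohol 1 and 2 and 10.29 and 9.11 on untreated 1 and 2. AFG3, given above with its values, was the higher one. Among activators of single mitochondrial mRNAs, 3 were higher and 3 lower. CBS1, which acts on the cytochrome b mRNA, had 11.72 and 9.65 on allyl alcohol 1 and 2 and 9.59 and 11.53 on untreated 1 and 2, whereas PET494, which acts on the COX3 mRNA, had 7.82 and 9.97 on allyl alcohol 1 and 2 and 9.96 and 7.92 on untreated 1 and 2. SOV1 and ATP22, the activator of the ATP6 mRNA, were higher as well, 4.41-fold and 3.39-fold inside allyl alcohol and 2.89-fold and 2.67-fold inside untreated.

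The 4 synthetase genes at least 2-fold apart in both labels were all lower on allyl alcohol 1 and untreated 2. MSW1, for tryptophan, was 3.49-fold higher on allyl alcohol 2 than on 1 and 3.27-fold higher on untreated 1 than on 2. The others were ISM1 for isoleucine, DIA4 for serine and MSF1 for phenylalanine. The median of the 13 genes was -0.48 inside allyl alcohol and -0.48 inside untreated.

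**Figure D5:**
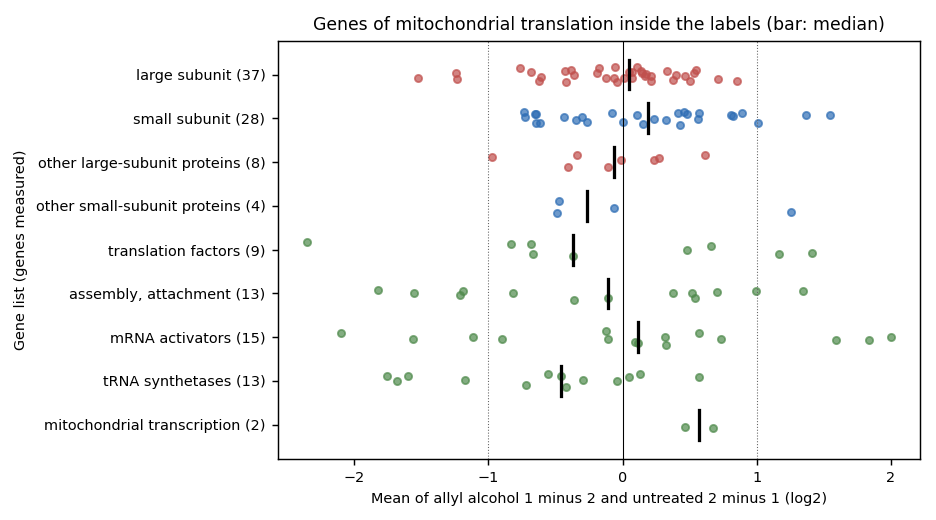
Mean of the log2 differences allyl alcohol 1 minus 2 and untreated 2 minus 1 for each gene of mitochondrial translation, by list, with the list's median as a black bar and dotted lines at 2-fold; points are jittered vertically. Genes of both ribosomal subunits cluster around 0, while the factors spread further, from MRF1 at the far left to CBS1 and SOV1 at the right. All genes tested are not drawn here.

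Set beside the mitochondrial ribosomal protein genes, the cytosolic ones had wide gaps in 1 direction. On allyl alcohol 1 and untreated 2, 77 of 128 were at least 2-fold lower in both labels and 0 were higher, beside 2 and 2 of the 65 mitochondrial genes, and 15.8% and 18.6% of all genes. Their median was -1.24 inside allyl alcohol and -1.65 inside untreated, against 0.056 and 0.076 for the mitochondrial ribosomal protein genes. After subtraction of each gene's mean, the cytosolic median was -0.52 and 0.70 on allyl alcohol 1 and 2 and 0.74 and -0.94 on untreated 1 and 2, whereas that of the mitochondrial genes was 0.017 and -0.046 on allyl alcohol 1 and 2 and -0.021 and 0.062 on untreated 1 and 2. Nuclear genes of the respiratory chain and ATP synthase, whose products join the proteins that mitochondrial ribosomes make, had medians of -0.75 inside allyl alcohol and -0.59 inside untreated, with 11 of 37 at least 2-fold lower and 0 higher. These lists were not tested against each other.

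Control probe sets also moved with the crossed order. The 36 Bacillus poly-A control sets, which report RNA added at labelling, were all higher on allyl alcohol 1 and untreated 2, by medians of 1.14 inside allyl alcohol and 0.88 inside untreated. The 27 hybridisation control sets had medians of 0.14 and 0.20. For ACT1, the 3' probe set exceeded the 5' probe set by 0.22 and 0.18 on allyl alcohol 1 and 2 and 0.19 and 0.27 on untreated 1 and 2. Their part in the gaps inside the labels was not tested.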

How the data were processed

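The deposited values are log2 RMA signals, 1 for each of 10928 probe sets on each of 4 arrays. The tools RMA and Affymetrix Expression Console appear, without roles, per the submitters' processing notes. No version or setting is given there. The log2 scale was read from the deposited values, which lay between 2.78 and 14.75. Biotin-labelled cRNA came from 6 µg of total RNA, per the labels' protocols. No scanner files or batch records were used. Probe sets were named through the platform annotation and the RefSeq gene table of assembly R64, matched on gene identifiers. A single gene was annotated for 7244 probe sets, of which 5498 matched the S. cerevisiae table and the other 1746 set the background. Several genes were annotated for 1 probe set and none for 3683. The brightest probe set by mean stood for each of 5449 genes. The RefSeq table was used for names and gene order only, and sequences were not used here.

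The group comparison used limma 3.58.1 in R 4.3.3 (lmFit, eBayes, no block, two-sided, Benjamini-Hochberg adjustment over all 5449 genes, threshold 0.05). The procedure was run on simulated data, where it had to pass only at a small set spread, below that of these arrays. That check does not show which changes the test could detect here. Intervals are 95%. The number of arrays limits the precision. The members, the lists and the order of subtraction inside the labels were chosen with earlier results of these data known. Genes were named by a rule: up to 6 members in each direction whose groups do not overlap, the 8 highest and 8 lowest by the mean gap inside the labels, MRPL32, MRPL36, MRP7, MRP20, MRP51, MRP10, MRPS5, RSM22 and RSM23, and up to 4 genes of each other list at least 2-fold apart in both labels. A part of the rule that ranked signal levels between genes was not used, since signals of different probe sets are not comparable. Genes outside the rule (YTA12, MRPS12, RSM19, RTC6 and MNP1) were chosen after their values were seen. Alternatives were other scalings, a filter on dim probe sets, averaged probe sets, an intensity trend, replicate blocks and each array left out.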

Additional observations from a re-analysis of the deposited data

How the results depend on the processing

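In limma 0 genes were called in each alternative run, and no member had an unadjusted p under 0.05 in any of them. The number of genes with an unadjusted p under 0.05 was 0 in each except a crossed replicate block, added after seeing the data, where it was 188 with a smallest adjusted p of 0.939. Same-numbered arrays deviated from their group means in opposite directions (r = -0.973 across genes), so the numbers do not pair the arrays. With the replicate block 0 genes were called and the members' median log2 difference was -0.073. That median lay between -0.078 and 0.013 with single arrays left out, the large-subunit median between -0.094 and -0.016, the small-subunit median between -0.089 and 0.073 and the gap between subunits between -0.13 and 0.029. The number of members whose groups did not overlap, 7 over all arrays, was between 28 and 44 with 1 array left out, and 7 or 8 under the other settings. With 1 array left out a group holds a single array, so any gene avoids overlap more easily. The share over all genes was not computed there, and those counts are not read as a trait of the members. The members' median inside the labels, averaged over both labels, was 0.066 as deposited, 0.042 with the genes quantile normalized anew and 0.015 with each array centred on its median gene. Centring also turned the large-subunit median inside untreated to -0.010, against 0.058 as deposited. Under each scaling the number of members at least 2-fold apart in both labels was 2 higher and 2 lower. Of 715 values of single members under the alternatives, 2 moved by a standard error or more, both of MRPL44 with an allyl alcohol array left out (0.50 without replicate 1 and -1.05 without replicate 2). The blocks, the intensity trend, the filter on dim probe sets and averaged probe sets could not change a member's difference in this design. The standard error was itself built from the gaps inside the labels, so the low count does not show that the differences were stable. The sign still turned for some members, such as MRPL8 (0.76 without allyl alcohol 1 and -0.77 without allyl alcohol 2). The median standard error of a member was 0.38 without a block, and the smallest unadjusted p of a member was 0.506 without a block and 0.0932 with the crossed replicate block.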
